A study of Drosophila melanogaster with 12 samples.

Results

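Replication, cyclin and mitosis genes were followed in mesodermal cells of Drosophila melanogaster embryos. The members were 47 genes picked by symbol: licensing factors, S-phase entry genes, cyclins and cyclin-dependent kinases (CDKs), and mitosis genes. In the array annotation 33 of the 47 had a probe set naming them alone, among 11982 genes named on the array. They were 10 of 13 licensing genes, 4 of 6 S-phase entry and nucleotide supply genes, 6 of 10 cyclin and CDK genes, and 13 of 18 mitosis genes. Mcm7, Orc6, geminin, RnrS, E2f1, CycA, Cdk1, dap, stg, polo, aurA, BubR1, Klp3A and pav were not analysed here. Each gene is given by its probe set with the highest mean, and fzy was the only member with more than 1.

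Slouch (Slou, also S59) and Muscle segment homeobox (Msh, gene symbol Dr) are homeodomain transcription factors that help set muscle founder identity. The study asked what each does when supplied throughout the mesoderm. Slou gain-of-function embryos carried twi-gal4, UAS-GFP and UAS-S59, and the Msh gain-of-function embryos carried twi-gal4, UAS-GFP and UAS-msh. Wild type sets 1 and 2 carried twi-gal4 and UAS-GFP without either factor, so all 4 groups had the driver and GFP. GFP-positive cells were sorted at late stage 11 to early stage 12, and total RNA went onto 1 single-colour array per sample, with 3 arrays (A, B and C) in each group. The driver acts in Twist-expressing cells as a whole, so each array averages over the sorted mesoderm and whatever else carried GFP. In such pools, fewer cells of a type and less RNA per cell cannot be told apart. Nothing states that replicate arrays stem from different embryo batches, and the p-values then describe array-to-array spread, part or all of which may be technical.

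Before a cell copies its DNA, the origin recognition complex (Orc proteins) and the loader Dup, the fly Cdt1, place the Mcm helicase on origins, a step called licensing. Cyclin E with Cdk2 starts S phase, and E2F proteins, held back by Rbf, control transcription of many S-phase genes. B-type cyclins drive mitosis, and the anaphase-promoting complex, through its activators Fzy and Fzr, then destroys cyclins and the securin Pim. Cells of the embryonic mesoderm divide in this period, and muscle progenitors divide to give founder cells.

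The deposited values are on a log2 scale and fall into 2 separately scaled parts, one for Slou and wild type set 1, the other for Msh and wild type set 2. A deposited level is therefore not set across those parts, and the comparisons across them given below used values after quantile normalization. Wild type set 2 was matched to Msh by shared scaling, since the labels number the Msh arrays 1. Changes are gain of function minus wild type in log2 units, with limma standard errors (SE) and Benjamini-Hochberg adjusted p over 18769 probe sets. A gene rose or fell where the adjusted p was under 0.05. The slou probe set read 11.01, 11.08 and 11.12 in Slou arrays, against 5.45, 5.69 and 5.61 in wild type set 1. The Dr probe set read 9.34, 9.34 and 9.38 in Msh arrays, against 8.77, 9.17 and 9.16 in wild type set 2. That change of 0.32 did not pass (SE 0.14, limma adjusted p = 0.254), so the Msh overexpression rests on the labels. All 33 members lay well above the dimmest probe sets, with group means of 4.03 to 9.17 in Slou and 4.18 to 9.33 in wild type set 1. Group means were 5.94 to 11.54 in Msh and 5.20 to 11.21 in wild type set 2. The median SD between the 3 arrays of a group was 0.08 in Slou, 0.06 in wild type set 1, 0.04 in Msh and 0.06 in wild type set 2.

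Cell cycle genes were higher in Msh arrays than in wild type set 2, and most lay slightly lower in Slou arrays than in wild type set 1. In Msh, 32 of 33 members had a positive change, and 14 rose, while 0 fell. Over all probe sets 2.86% rose and 3.95% fell. The median change of the members in Msh was 0.42, against 0.02 for all probe sets. In Slou, 30 of 33 had a negative change with a median of -0.16, and none passed. Over all probe sets, limma called 1.24% higher and 1.08% lower in Slou after adjustment. At an unadjusted p under 0.05, 1 member was higher and 8 were lower in Slou, where 7.84% of all probe sets were higher and 7.21% lower. The 3 Msh arrays averaged 9.05, 9.07 and 9.04 over the 33 members, against 8.64, 8.67 and 8.64 in wild type set 2. The 3 Slou arrays averaged 6.91, 6.91 and 6.93, against 7.10, 7.09 and 7.08 in wild type set 1. Both gain-of-function groups thus lay clear of their own wild-type arrays on these averages, in opposite directions. The average over the cyclin and CDK genes alone overlapped wild type set 1 in Slou. Against the other wild-type set after quantile normalization, Slou kept the sign of its change for 12 of 33 members and Msh for 17, as described below.

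**Figure D1:**
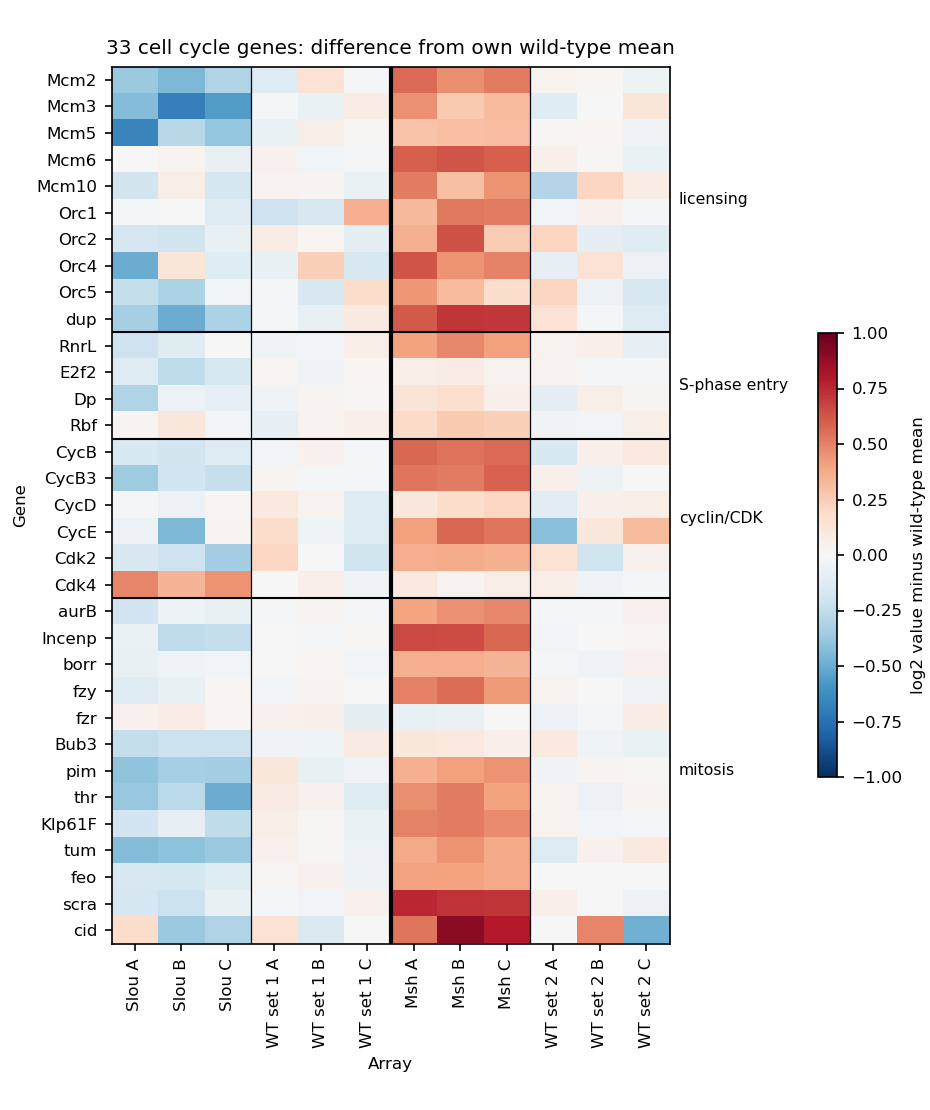
Log2 value of each of the 33 measured genes (down the page, by role) on each of the 12 arrays (across), minus the mean of the wild-type set that shares its scaling. Red is higher and blue is lower than that mean; the Msh columns are red for all genes but fzr and a few near 0, and the Slou columns are mostly pale blue, with Cdk4 red.

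Several counts depended on how the spread of each gene was estimated and on single arrays. When the spread was estimated with an intensity trend, 26 members were called higher in Msh, where 10.1% of all probe sets were. With that trend 1 member was called higher and 14 lower in Slou, where 6.39% of probe sets were higher and 6.29% lower. The 14 were Mcm2, Mcm3, Mcm5, dup, E2f2, CycB, CycB3, Incenp, Bub3, pim, thr, tum, feo and scra. Cdk4 was the higher one. With probe sets under a mean of 4 left out of the fit, 22 members were called higher in Msh against a background of 20.5%. In Slou that fit called 1 higher and 9 lower, against 16.0% and 15.7% of probe sets. Leaving out any 1 Msh array, or array B or C of wild type set 2, left 0 members called in Msh. Calls were lost across the whole table in these fits: the share of all probe sets called higher was 0.0320%, 0.0480% and 0.128% without Msh A, B and C, and 0.511% and 0.581% without arrays B and C of wild type set 2. Without array A of wild type set 2, 5 members and 1.30% of probe sets were called higher. The median change in Msh stayed between 0.41 and 0.45 in those fits.

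A count that needs no estimate of the spread is how often the 3 arrays of one group lay wholly to one side of the other 3. The Msh arrays lay wholly above wild type set 2 for 27 members and wholly below for 0. Over all probe sets, 17.5% lay wholly above and 15.3% wholly below in that comparison. The Slou arrays lay wholly below wild type set 1 for 17 members and wholly above for 1, Cdk4, where 12.8% and 12.5% of all probe sets did so. Among probe sets with a mean of at least 4, as all members had, 29.9% lay wholly above in Msh and 25.2% wholly below in Slou.

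All 10 licensing genes had a positive change in Msh (median 0.44, range 0.30 to 0.68), and all 10 a negative one in Slou (median -0.18, range -0.56 to -0.02). In Msh 3 rose: Mcm2, Mcm6 and dup. The dup probe set, for the protein that loads the helicase, read 9.95, 10.05 and 10.04 in Msh arrays, against 9.47, 9.32 and 9.21 in wild type set 2. It read 7.30, 7.13 and 7.31 in Slou arrays, against 7.62, 7.55 and 7.72 in wild type set 1. Its arrays did not overlap in either comparison, above wild type in Msh and below it in Slou. The rise in Msh was 0.68 (SE 0.10, limma adjusted p = 0.0300), a 1.60-fold difference. The change in Slou was -0.38 (SE 0.11, adjusted p = 0.214, and 6.65e-05 with an intensity trend).

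The helicase subunit genes Mcm6 and Mcm2 rose in Msh. Mcm6 read 9.94, 9.97 and 9.94 in Msh arrays, against 9.39, 9.36 and 9.27 in wild type set 2, a rise of 0.61 (SE 0.07, limma adjusted p = 0.0200). In Slou arrays it read 7.91, 7.94 and 7.84, against 7.95, 7.89 and 7.89 in wild type set 1. The Msh arrays were all higher, while the Slou arrays overlapped their wild type, with a change of -0.02 (SE 0.09). Mcm2 read 9.18, 9.08 and 9.13 in Msh arrays, against 8.65, 8.63 and 8.56 in wild type set 2. In Slou arrays it read 6.47, 6.39 and 6.54, against 6.71, 6.99 and 6.83 in wild type set 1. Mcm2 thus lay wholly above its wild type in Msh and wholly below in Slou. Its rise in Msh was 0.52 (SE 0.07, limma adjusted p = 0.0288), and the change in Slou was -0.38 (SE 0.12, adjusted p = 0.255).

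Mcm3 and Mcm5, singled out after their values were seen, had the most negative changes of all members in Slou. Mcm3 read 6.12, 5.86 and 5.99 in Slou arrays, against 6.54, 6.49 and 6.62 in wild type set 1. Its change of -0.56 (SE 0.12) had a limma adjusted p of 0.108, and of 3.66e-05 with an intensity trend. For Mcm5 the change in Slou was -0.44 (SE 0.14, limma adjusted p = 0.248, and 0.000788 with an intensity trend). In Msh both were higher without passing, Mcm3 by 0.34 (SE 0.10, adjusted p = 0.139) and Mcm5 by 0.30 (SE 0.07, adjusted p = 0.0722).

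No origin recognition gene passed, though all 4 had a positive change in Msh. Orc4 read 6.83, 6.65 and 6.70 in Msh arrays, against 6.12, 6.34 and 6.14 in wild type set 2. The Msh arrays were all higher, but the change of 0.53 (SE 0.10) just missed, with a limma adjusted p of 0.0548. In Slou arrays Orc4 read 4.32, 4.94 and 4.70, against 4.74, 5.06 and 4.66 in wild type set 1, and these overlapped. The changes of Orc1, Orc2 and Orc5 in Msh were 0.46, 0.42 and 0.31, with limma adjusted p-values of 0.0551, 0.208 and 0.274. Mcm10, which acts in starting the helicase, changed by 0.42 in Msh (SE 0.16, adjusted p = 0.217). In Slou these 5 genes, Orc4 included, had changes between -0.19 and -0.05, all with overlapping arrays.

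Among S-phase entry and nucleotide supply genes, RnrL rose in Msh and the others did not pass. Their median change was 0.17 in Msh, with 1 of 4 rising, and -0.13 in Slou, with none passing. RnrL, the large subunit of ribonucleotide reductase, which makes DNA precursors, read 8.32, 8.40 and 8.33 in Msh arrays, against 7.96, 7.97 and 7.83 in wild type set 2. That was a rise of 0.43 (SE 0.08, limma adjusted p = 0.0474), close to the threshold, with no overlap. In Slou arrays RnrL read 5.74, 5.83 and 5.95, against 5.91, 5.92 and 6.01 in wild type set 1, and the groups overlapped.

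None of the 3 regulators of E2F transcription passed in either comparison. Rbf, the fly retinoblastoma-family protein, read 8.22, 8.29 and 8.26 in Msh arrays, against 7.988, 7.998 and 8.086 in wild type set 2. These did not overlap, but the change of 0.23 (SE 0.07) did not pass (limma adjusted p = 0.151). In Slou Rbf had a change of 0.04 (SE 0.10). E2f2, a repressor of the E2F family, read 9.58, 9.59 and 9.55 in Msh arrays, against 9.55, 9.50 and 9.50 in wild type set 2, which overlapped. It read 7.88, 7.75 and 7.84 in Slou arrays, against 8.02, 7.97 and 8.03 in wild type set 1. The Slou arrays were all lower, with a change of -0.18 (SE 0.10, limma adjusted p = 0.472, and 0.0214 with an intensity trend). Dp, the partner of E2F proteins, read 9.75, 9.79 and 9.68 in Msh arrays, against 9.54, 9.68 and 9.65 in wild type set 2. Its changes were 0.12 in Msh (SE 0.08) and -0.15 in Slou (SE 0.11), and neither passed.

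**Figure D2:**
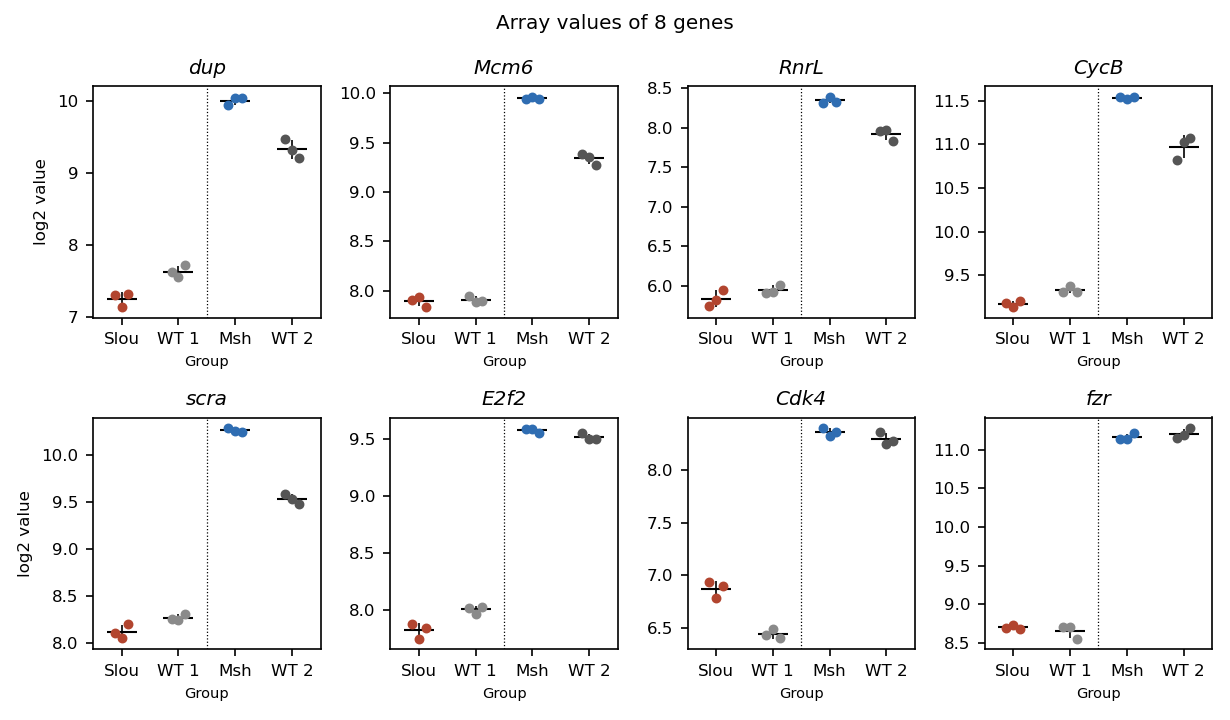
Log2 values of 8 genes on the 3 arrays of each group (points), with group mean (bar) and SD (line, n = 3); the dotted line parts the 2 scalings, across which heights are not comparable. For dup, Mcm6, RnrL, CycB and scra the Msh points lie wholly above wild type set 2, whereas for E2f2, Cdk4 and fzr they overlap it, and the Slou points of Cdk4 lie above wild type set 1.

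Among cyclins and CDKs, CycB and CycB3 rose in Msh, while CycD, CycE, Cdk2 and Cdk4 did not pass. All 6 had a positive change in Msh (median 0.44, range 0.07 to 0.56), and 2 rose. In Slou 5 of 6 were negative (median -0.16), and none passed. CycB3 read 10.96, 10.95 and 11.02 in Msh arrays, against 10.48, 10.38 and 10.43 in wild type set 2. It read 8.54, 8.70 and 8.67 in Slou arrays, against 8.92, 8.88 and 8.88 in wild type set 1. The arrays were apart both times, with a rise in Msh of 0.55 (SE 0.07, limma adjusted p = 0.0248) and a change in Slou of -0.26 (SE 0.10, adjusted p = 0.329). CycB read 11.54, 11.52 and 11.54 in Msh arrays, against 10.82, 11.03 and 11.07 in wild type set 2, a rise of 0.56 (SE 0.10, adjusted p = 0.0406). In Slou arrays it read 9.18, 9.14 and 9.20, against 9.30, 9.38 and 9.32 in wild type set 1. CycB was thus also apart from its wild type in both comparisons, with a change in Slou of -0.16 (SE 0.09, limma adjusted p = 0.517).

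Cdk4, the kinase partner of Cyclin D, was the one member whose Slou arrays all lay above wild type set 1. It read 6.93, 6.78 and 6.90 in Slou arrays, against 6.44, 6.49 and 6.40 in wild type set 1. The change of 0.43 (SE 0.10) had a limma adjusted p of 0.138, and of 0.000134 with an intensity trend. In Msh arrays Cdk4 read 8.40, 8.32 and 8.36, against 8.36, 8.25 and 8.28 in wild type set 2, which overlapped. CycD had changes of 0.16 in Msh (SE 0.09) and -0.02 in Slou (SE 0.11). Its Msh arrays lay wholly above wild type set 2 without passing (limma adjusted p = 0.363).

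Cdk2, the S-phase kinase, read 8.46, 8.47 and 8.46 in Msh arrays, against 8.25, 7.90 and 8.14 in wild type set 2. The groups did not overlap, but the change of 0.37 (SE 0.12) did not pass (limma adjusted p = 0.151). In Slou arrays Cdk2 read 6.58, 6.53 and 6.39, against 6.94, 6.73 and 6.54 in wild type set 1, with overlap. Its partner CycE, named after its values were seen, read 9.16, 9.32 and 9.29 in Msh arrays, against 8.33, 8.86 and 9.07 in wild type set 2. Array A of wild type set 2 was the low one, and the change of 0.51 (SE 0.21) had a limma adjusted p of 0.253.

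Mitosis genes contributed most of the calls. In Msh 12 of 13 had a positive change (median 0.44, range -0.04 to 0.74), and 8 rose. In Slou 12 of 13 were negative (median -0.17, range -0.40 to 0.05), and none passed. The largest rise among called members was that of scra, the fly anillin, a scaffold of the cytokinetic ring. It read 10.28, 10.25 and 10.24 in Msh arrays, against 9.58, 9.53 and 9.47 in wild type set 2. In Slou arrays scra read 8.10, 8.05 and 8.19, against 8.25, 8.24 and 8.31 in wild type set 1. The arrays were apart in both comparisons. The rise in Msh was 0.73 (SE 0.07, limma adjusted p = 0.0146), or 1.66-fold, and the change in Slou was -0.15 (SE 0.10, adjusted p = 0.555).

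Genes of the chromosomal passenger complex, which corrects kinetochore attachments and works in cytokinesis, were all higher in Msh. Incenp, its scaffold, read 10.09, 10.08 and 10.01 in Msh arrays, against 9.40, 9.44 and 9.45 in wild type set 2. It read 8.04, 7.85 and 7.86 in Slou arrays, against 8.11, 8.09 and 8.12 in wild type set 1, so its arrays were apart both times. Its rise in Msh was 0.63 (SE 0.07, limma adjusted p = 0.0177), and its change in Slou was -0.19 (SE 0.10, adjusted p = 0.492). The kinase gene aurB rose by 0.44 in Msh (SE 0.07, limma adjusted p = 0.0359), and borr, the borealin subunit, had a change of 0.36 (SE 0.07, adjusted p = 0.0524). In Slou the changes of aurB and borr were -0.11 and -0.05.

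Among spindle and midzone genes, Klp61F and feo rose in Msh. Klp61F, a kinesin that slides spindle microtubules apart, read 9.35, 9.36 and 9.33 in Msh arrays, against 8.89, 8.82 and 8.84 in wild type set 2. It read 7.08, 7.19 and 7.02 in Slou arrays, against 7.33, 7.28 and 7.21 in wild type set 1. All Msh arrays were higher and all Slou arrays lower than their wild type. Klp61F rose by 0.49 in Msh (SE 0.07, limma adjusted p = 0.0266) and had a change of -0.18 in Slou (SE 0.10, adjusted p = 0.521). The midzone gene feo rose by 0.39 in Msh (SE 0.07, limma adjusted p = 0.0391). For tum, which encodes the RacGAP of centralspindlin, the change was 0.40 in Msh (SE 0.09, adjusted p = 0.0805). In Slou tum read 7.55, 7.58 and 7.62, against 8.029, 7.9996 and 7.930 in wild type set 1. That change of -0.40 (SE 0.09) was the most negative of the mitosis genes, with a limma adjusted p of 0.135 and of 2.19e-06 with an intensity trend. These 2 genes, and the others in this role described without a full set of array values, were picked after their values were seen.

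Among genes of anaphase, pim, thr and fzy rose in Msh and fzr did not pass. The securin gene pim rose by 0.40 in Msh (SE 0.07, limma adjusted p = 0.0449), and thr, a separase subunit, by 0.47 (SE 0.08, adjusted p = 0.0376). In Slou the changes of pim and thr were -0.36 (SE 0.10) and -0.38 (SE 0.12), with all Slou arrays below wild type set 1. The activator fzy, the fly Cdc20, read 10.44, 10.49 and 10.37 in Msh arrays, against 9.97, 9.94 and 9.90 in wild type set 2. In Slou arrays fzy read 8.54, 8.59 and 8.68, against 8.64, 8.69 and 8.66 in wild type set 1, and overlapped. It rose by 0.50 in Msh (SE 0.08, limma adjusted p = 0.0318). The other activator, fzr (Cdh1), which acts when cells leave the cycle, was the only member with a negative change in Msh. It read 11.14, 11.14 and 11.21 in Msh arrays, against 11.15, 11.19 and 11.28 in wild type set 2, with overlap and a change of -0.04 (SE 0.08, adjusted p = 0.795). The checkpoint gene Bub3 had changes of 0.08 in Msh and -0.22 in Slou, where its arrays were all lower.

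The other 2 probe sets of fzy did not follow its brightest one. Their means over the 12 arrays were 2.33 and 0.85, near the dim end of the array. On the dimmer of them fzy read 2.92, 2.23 and 2.11 in Slou arrays, against -0.75, -0.89 and -0.01 in wild type set 1, a change of 2.97 (limma adjusted p = 0.0279). In Msh the changes of these probe sets were -1.31 and -1.84, and neither passed (adjusted p = 0.467 and 0.362). The rise of fzy in Msh therefore rests on 1 of its 3 probe sets.

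The gene for the centromeric histone, cid, had widely spread arrays. It read 5.73, 6.10 and 5.99 in Msh arrays, against 5.19, 5.68 and 4.71 in wild type set 2. The arrays did not overlap, and its change of 0.74 was numerically the largest of the members. Its SE of 0.28 was also the largest, and it did not pass (limma adjusted p = 0.208).

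**Figure D3:**
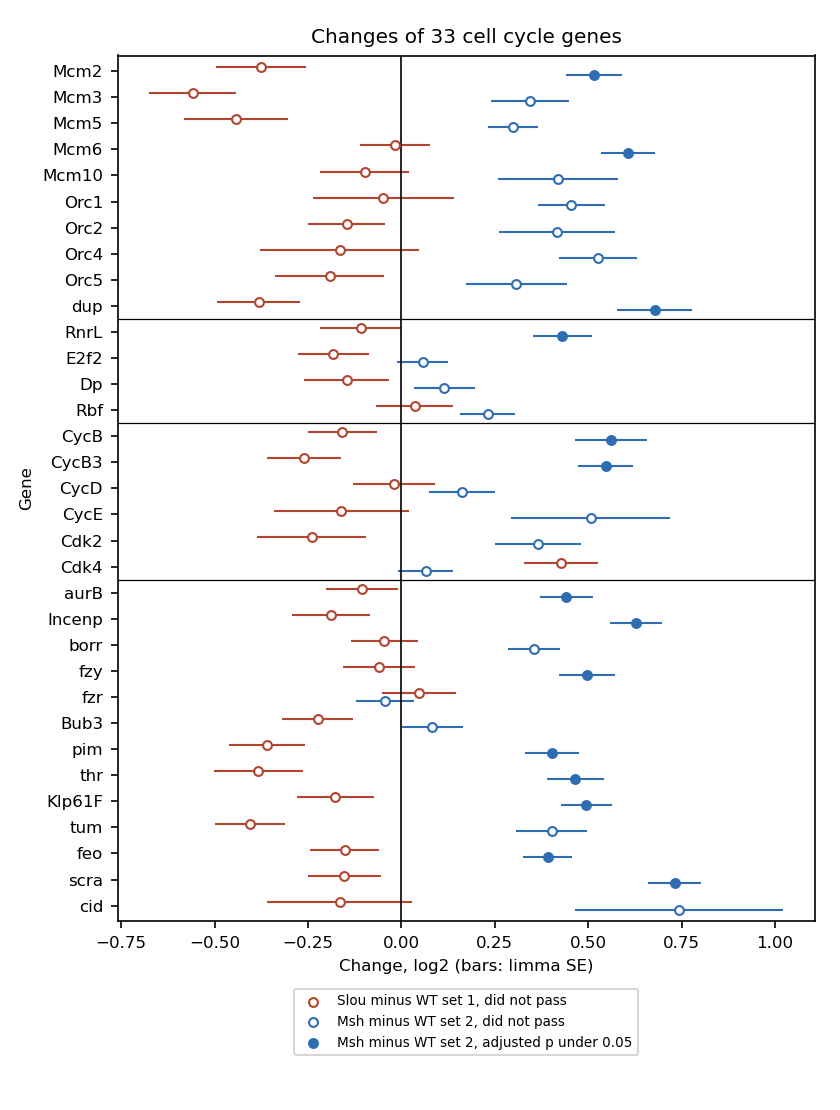
Change of each gene on the log2 scale in Slou (red) and Msh (blue) against its own wild-type set, with the limma SE as a bar; filled points passed at an adjusted p under 0.05. The 14 filled points are all Msh and lie between 0.39 and 0.73, while the Slou points lie mostly left of 0 and are all open.

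The Slou effect minus the Msh effect was tested for each member over all 12 arrays. Each factor has its own wild-type set and scaling, so factor and array set cannot be told apart in that test. The difference was negative for 31 of 33 members with a median of -0.60, against -0.01 for all probe sets. It passed for 18 members, all negative, where 4.46% of all probe sets passed in that direction. None passed in the positive direction, where 4.76% of probe sets did, and 1 member was positive at an unadjusted p under 0.05, where 10.3% of probe sets were. These counts use the brightest probe set of fzy. Its dimmest one passed in the positive direction, at 4.81 (limma adjusted p = 0.0275). By role, 5 of 10 licensing genes, 1 of 4 S-phase genes, 2 of 6 cyclin and CDK genes and 10 of 13 mitosis genes passed. With an intensity trend 25 were called negative (7.96% of probe sets) and 1, Cdk4, positive (7.73%). The smallest p-values were those of scra, dup and CycB3. Their differences were -0.88 (SE 0.10, limma adjusted p = 0.000941), -1.06 (SE 0.14, adjusted p = 0.00171) and -0.81 (SE 0.10, adjusted p = 0.00178). Because each effect was measured on its own scaling, the sizes combine values that were not brought to 1 scale.

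Among the 33 members, 30 were higher in Msh and lower in Slou, 2 (Rbf and Cdk4) were higher in both, and fzr was lower in Msh and higher in Slou. The size of a member's change in one comparison said little about its size in the other. Across the 33 genes, which are not independent replicates, Pearson's r between the changes was -0.32 and Spearman's rho -0.18. Over 7636 probe sets with a mean of at least 4, those were 0.22 and 0.05. Mcm6 shows this, with one of the larger rises in Msh and a change near 0 in Slou, and Bub3 shows the reverse.

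**Figure D4:**
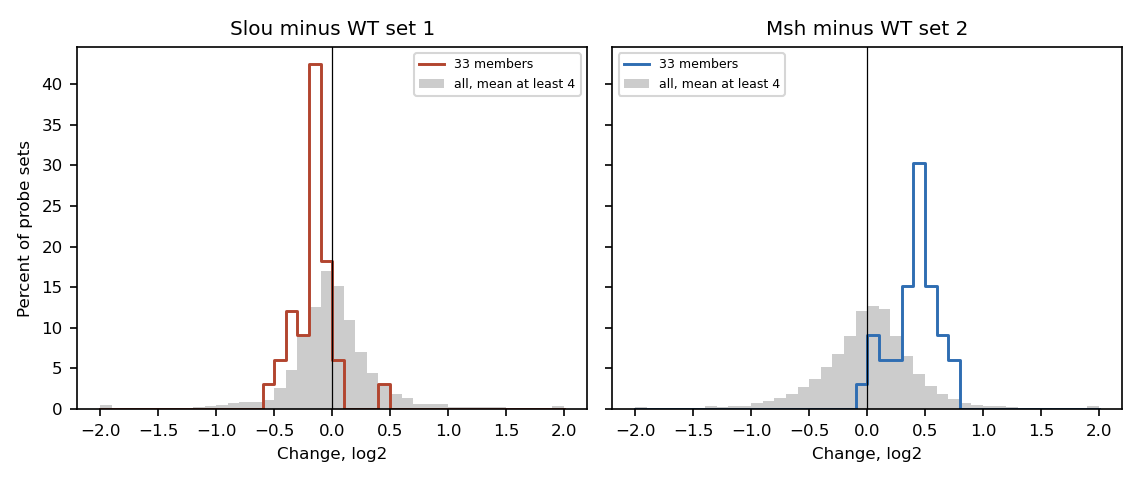
Share of probe sets (percent, vertical) by change on the log2 scale (horizontal, changes past 2 in the end bars) for the 33 members (line) and for all probe sets with a mean of at least 4 (grey). The members' median is at -0.16 in Slou and 0.42 in Msh, while the grey distributions have medians of -0.01 and 0.03.

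The members were also set against the other wild-type arrays. After quantile normalization of all 12 arrays, a step added once the data had been seen, the wild-type sets themselves differed on the members. Wild type set 1 minus set 2 had a median of 0.31 over the 33 members (range -0.79 to 1.08), against 0.02 over all probe sets, and was positive for 28. limma called 8 members higher in set 1 (2.75% of probe sets) and 1 lower (3.37%). The 8 were Rbf and the mitosis genes aurB, Incenp, borr, fzy, thr, feo and scra, and fzr was the lower one. The set, the scaling and any difference between the experiments cannot be told apart here.

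Set against wild type set 1 on that scale, Msh kept the sign of its change for 17 of 33 members, with a median of 0.07. There 7 members were called higher (9.45% of probe sets) and 4 lower (9.91%). Of the 14 members that rose against wild type set 2, 10 were still positive, and 3 were called higher against both sets. Those 3 were dup at 0.54 (limma adjusted p = 0.0175), RnrL at 0.51 (adjusted p = 0.0156) and CycB at 0.45 (adjusted p = 0.0183). The 4 that turned negative were aurB, fzy, thr and feo, all mitosis genes, and scra was 0.17. Of these, aurB at -0.47 (limma adjusted p = 0.0180) and thr at -0.41 (adjusted p = 0.0494) were called lower. The other members called lower were Rbf at -0.35 and Bub3 at -0.48. Beside dup, RnrL and CycB, those called higher were CycE at 1.22 (limma adjusted p = 0.00733) and Orc1 at 0.80 (adjusted p = 0.0471). So were fzr at 0.69 (adjusted p = 0.0107) and Mcm3 at 0.53 (adjusted p = 0.0254). Against wild type set 2 the change of fzr had been negative. Among the 14 members that rose, dup, RnrL and CycB were thus the ones called higher against both wild-type sets, while aurB and thr changed direction. Both comparisons used the same 3 Msh arrays, so these calls are not independent. The share of all probe sets called higher against both sets was not counted.

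Set against wild type set 2, Slou kept its sign for 12 of 33 members, and the median was 0.18. There 4 members were called higher (4.98% of probe sets) and 2 lower (5.72%). Mcm3 was the one member called lower that also had a negative change against wild type set 1, at -0.72 (limma adjusted p = 0.0323). The other called lower was fzr, at -0.74 (adjusted p = 0.0162), and the 4 called higher were Rbf, aurB, borr and fzy. Cdk4 had a positive change of 0.47, beside 0.43 against wild type set 1, and did not pass in either.

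**Figure D5:**
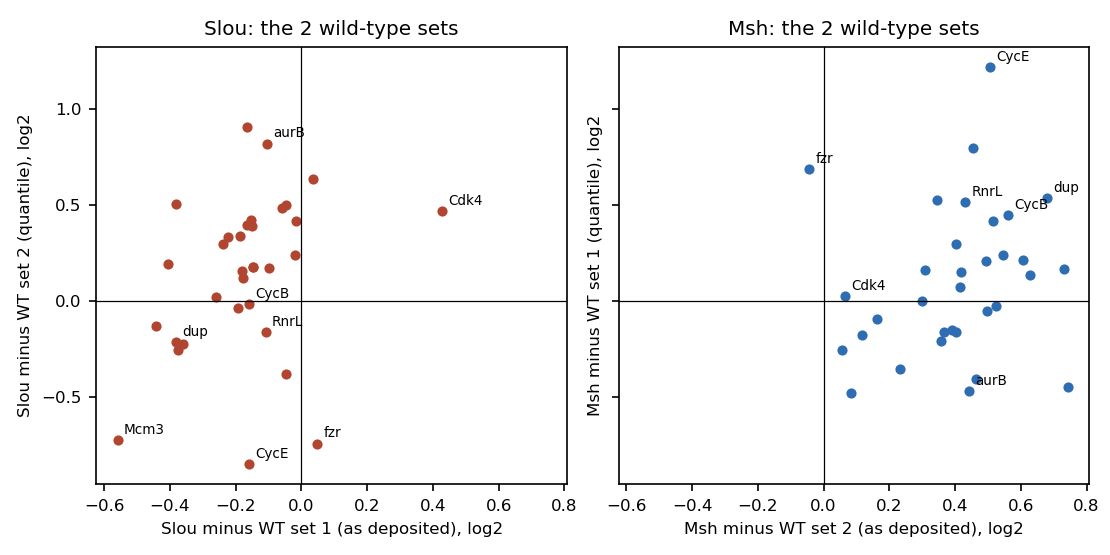
Change of each of the 33 genes against the wild-type set of its own scaling (horizontal, log2) and against the other wild-type set after quantile normalization of all 12 arrays (vertical, log2), for Slou and for Msh. Points to the upper right and lower left of the crossing lines keep their sign, which 12 genes do in Slou and 17 in Msh; dup, RnrL and CycB stay well above 0 on both axes in Msh.

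Other genes of the same machinery, in lists of 106 genes of which 88 were measured, had medians of the same sign as the members. In Msh 10 of the 88 rose and 1 fell, with a median change of 0.21. Over all probe sets 2.86% rose and 3.95% fell in Msh. In Slou none of the 88 passed and the median was -0.08, where 1.24% of all probe sets rose and 1.08% fell. Among 26 other replication genes 3 rose in Msh: dpa, the Mcm4 subunit of the helicase, by 0.63 (SE 0.07, limma adjusted p = 0.0174), Ts, thymidylate synthase, by 0.76 (SE 0.09, adjusted p = 0.0193), and Psf1, a GINS subunit, by 1.01 (SE 0.15, adjusted p = 0.0314). Psf1 was also positive in Slou, at 1.00 (adjusted p = 0.152). Of 15 other cyclin and CDK genes only Cks30A, a small CDK-binding subunit, rose in Msh, by 0.77 (SE 0.08, limma adjusted p = 0.0157). Among 47 other mitosis genes 6 rose in Msh and 1, san, fell. The kinetochore genes Ndc80 and Spc105R rose by 0.72 each (adjusted p = 0.0156 and 0.0189), and glu, a condensin subunit, by 0.70 (adjusted p = 0.0202). In Slou the spindle checkpoint gene mad2 and the kinesin gene ncd each had a change of -0.48 (SE 0.10 each, limma adjusted p = 0.102 and 0.119). In the test of the Slou effect minus the Msh effect, 13 of the 88 were positive and 75 negative. Of these 1 passed in the positive direction and 19 in the negative, where 4.76% and 4.46% of all probe sets did. The negative ones were led by Cks30A at -1.02 (limma adjusted p = 0.000391) and dpa at -0.88 (adjusted p = 0.000784).

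Markers of other cell types moved alongside, and their part in the members' changes was not tested. Mesoderm markers, 11 of 15 measured, summed to 13.47 to 13.52 in Msh arrays, against 13.32 to 13.44 in wild type set 2, as log2 of the summed linear values. In Slou they summed to 11.88 to 11.97, against 11.87 to 11.92 in wild type set 1. All 11 were above a level of 2 in each group, but single markers moved. In Msh twi rose by 0.91 (SE 0.15, limma adjusted p = 0.0392), more than any member that rose, and Hand fell by 0.48 (SE 0.08, adjusted p = 0.0359). In Slou, where most members were negative, twi lay wholly above wild type set 1. That change of 0.49 (SE 0.11) did not pass (limma adjusted p = 0.117). In Slou sns rose by 1.59 (SE 0.18, limma adjusted p = 0.0252), while bin fell by 1.64 (SE 0.11, adjusted p = 0.00926) and Hand by 2.21 (SE 0.23, adjusted p = 0.0229). Epidermis markers, 7 of 7 measured, summed to 12.06 to 12.12 in Msh arrays, against 11.51 to 11.64 in wild type set 2, and 3 rose (grh, crb and sdt). Neuroblast markers, 9 of 9, summed to 12.62 to 12.70 in Msh, against 12.29 to 12.48 in wild type set 2, and 2 rose (ase and mira). Of these 9, 5 overlapped wild type set 2, and 2 (dpn and esg) had a negative change. Trachea and gland markers, 4 of 6, summed to 10.04 to 10.14 in Msh, against 9.44 to 9.52 in wild type set 2, and 3 rose. The summed markers of these 3 other types were thus higher in Msh, as were the mesoderm sum and the germline sum given below. The hemocyte sum was lower in Msh. The neuron sum overlapped wild type set 2, but 1 of its markers had a positive change in Msh and 4 a negative one.

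In Slou the neuroblast sum was 9.68 to 9.74, against 9.91 to 9.99 in wild type set 1, where pros fell by 0.98. The epidermis sum in Slou was 8.69 to 8.84, against 8.80 to 8.89 in wild type set 1, and no marker of it passed. The trachea and gland sum in Slou was 7.76 to 7.88, against 7.38 to 7.54 in wild type set 1, so it moved opposite to the members' median there. Neuron markers, 5 of 7, summed to 8.42 to 8.72 in Slou, against 9.23 to 9.32 in wild type set 1, and to 11.37 to 11.55 in Msh, against 11.31 to 11.51 in wild type set 2. Of these 5, 3 fell in Msh, fne by 0.85, nrv3 by 1.72 and Appl by 0.75, and Appl fell by 1.62 in Slou. In Msh nSyb also had a negative change, of -2.47 (limma adjusted p = 0.0521). The brightest of the 5, elav, averaged 11.27 in Msh and weighs most in the sum. Its Msh arrays lay wholly above wild type set 2, with a change of 0.31 (SE 0.10, limma adjusted p = 0.154). Hemocyte markers, 9 of 9, summed to 12.46 to 12.50 in Msh, against 13.03 to 13.06 in wild type set 2, where 6 fell. In Slou the hemocyte sum was 11.19 to 11.26, against 11.23 to 11.27 in wild type set 1, and 2 rose and 4 fell. Germline markers, 5 of 7, summed to 8.09 to 8.37 in Msh, against 7.611 to 7.9996 in wild type set 2, and 1 rose. In Slou the germline sum was 5.20 to 5.30, against 5.53 to 5.61 in wild type set 1. Markers with a group mean below 2 were nSyb in Slou, wild type set 1 and Msh, Hml in Msh, bam and osk in Slou, and btl, vas and bam in wild type set 1. RNA quality and spike controls also differed. The signal of Act5C at its 3′ end minus its 5′ end, which grows as RNA degrades or labelling shortens, averaged 2.23 ± 0.10 in Msh, against 1.44 ± 0.04 in wild type set 2 (SD, n = 3 each). It was 1.47 ± 0.02 in Slou and 1.44 ± 0.02 in wild type set 1. The 12 poly-A spike control probe sets averaged 9.11 ± 0.15 in Msh, against 10.75 ± 0.45 in wild type set 2, and 6.04 ± 0.11 in Slou, against 6.71 ± 0.03 in wild type set 1. The part of these differences in the members' changes was not tested.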

How the data were processed

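The deposited table holds 18952 probe sets on 12 single-colour arrays. Per the submitters' processing notes the authors used the R package affy. Background correction, scaling and summary method are not given in the sources used here, and that the deposited values are log2 was read from their size. They fall into 2 separately scaled parts. Leaving out 183 controls, the 18769 others went into limma 3.58.1 (R 4.3.3), without an intensity trend, on the 6 arrays of a scaling. The difference of effects used all 12 arrays and 4 group means. Number of arrays limits the precision. Probe sets were named from the platform annotation (13647 with 1 gene, 402 with several, 4720 with none), with symbols updated through RefSeq. The limma fit was also run on simulated data with independent noise on each array. Such data hold no scaling split and no difference between wild-type sets, so they cannot speak to either.

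Members, lists and tests were chosen with earlier results of these data known. Array values are given for up to 4 members of each role with the smallest p in Slou or Msh, for the 3 with the smallest p for the difference, and for members with conflicting probe sets; others were added after their values were seen. Alternatives were an intensity trend (also robust), a fit of 12 arrays, quantile normalization, 75th percentile centring, a minimum mean of 4, averaged probe sets, the other wild-type set, the array letter as a block and leaving out each array. Same-lettered arrays did not deviate together, with correlations of -0.01 to 0.03, so the letters were not taken as pairs. Promoter motifs were not analysed here.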

Additional observations from a re-analysis of the deposited data

Results flagged for a closer look

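For 18 members the Slou effect differed from the Msh effect in limma's test of that difference over 12 arrays, each time in the negative direction. Among licensing genes the differences on the log2 scale were -0.89 for Mcm2, -0.90 for Mcm3, -0.74 for Mcm5, -0.62 for Mcm6 and -1.06 for dup. RnrL differed by -0.54, CycB by -0.72 and CycB3 by -0.81. Among mitosis genes the differences were -0.55 for aurB, -0.82 for Incenp, -0.40 for borr, -0.56 for fzy, -0.76 for pim and -0.85 for thr. They were -0.67 for Klp61F, -0.81 for tum, -0.54 for feo and -0.88 for scra. The value for fzy is that of its brightest probe set. On its dimmer probe sets the difference was -0.03 (limma adjusted p = 0.994) and 4.81 (adjusted p = 0.0275), the latter in the opposite direction. Each effect was measured against its own wild-type set, and those sets differed on the members by a median of 0.31 after quantile normalization. The part of that difference in these values was not tested.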

How the results depend on the processing

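The number of arrays and the distance of a probe set from background limit these results. With 0 members called in either direction in Slou, an intensity trend called 1 higher and 14 lower. A robust prior with it called 1 and 13, and a fit of 12 arrays 1 and 7. Leaving out dim probe sets called 1 and 9. Over all 18769 probe sets, 232 were called higher and 202 lower in Slou. The trend called 1200 and 1180, the robust prior 1168 and 1120, and the fit of 12 arrays 819 and 772. Without dim probe sets 1080 and 1055 of 6737 were called. In Msh, 14 members were called higher, against 26 with the trend, 24 with the robust prior and 22 without dim probe sets. Leaving out each array gave 0 to 5. Over all probe sets 536 were called higher in Msh, against 1893 with the trend and 1874 with the robust prior. Without dim probe sets 1804 of 8792 were, and leaving out each array gave 6 to 244. For the difference, 0 members were called higher, against 1 with the trend, with the robust prior and without dim probe sets. There 18 were called lower, with 16 to 18 when each array was left out. Over all probe sets 893 were called higher, against 1450 with the trend, 1432 with the robust prior and 1523 of 7636 without dim probe sets. Lower calls over all probe sets were 837, with 485 to 698 when each array was left out. The replicate block (array letter) called 0 members in Msh and in Slou, where limma with it called 0 of all 18769 probe sets (3479 in Msh and 2105 in Slou at an unadjusted p under 0.05), and 2 lower in the difference, where it called 173 lower. Quantile normalization, 75th percentile centring and averaged probe sets kept every count within 1.5 times. The cause of these shifts was not tested. Against the other wild-type set after quantile normalization, 4 members were called higher and 2 lower in Slou (median 0.18). In Msh 7 were called higher and 4 lower (median 0.0720). In those fits 4.98% of all probe sets were called higher and 5.72% lower in Slou, and 9.45% and 9.91% in Msh. Changes in Slou that turned there were Mcm6 0.42, Mcm10 0.17, Orc2 0.17, Orc4 0.39, E2f2 0.16, Dp 0.18, CycB3 0.0206, CycD 0.24, Cdk2 0.30, aurB 0.82, Incenp 0.34, borr 0.50, fzy 0.49, fzr -0.74, Bub3 0.33, thr 0.51, Klp61F 0.12, tum 0.19, feo 0.39, scra 0.42 and cid 0.91. Those in Msh were Mcm5 -0.000743, Orc4 -0.0244, E2f2 -0.26, Dp -0.18, Rbf -0.35, CycD -0.0913, Cdk2 -0.16, aurB -0.47, borr -0.21, fzy -0.0514, fzr 0.69, Bub3 -0.48, thr -0.41, tum -0.16, feo -0.15 and cid -0.45. Averaging its 3 probe sets gave fzy 0.52 in Slou, -0.89 in Msh and 1.41 for the difference. Quantile normalization put Mcm6 in Slou at 0.00183. Leaving out 1 array moved near-zero changes in Slou across 0: Mcm6 -0.0373 to 0.0131, Orc1 -0.15 to 0.13, Rbf -0.00625 to 0.0693, CycD -0.0854 to 0.0290 and fzr -0.00290 to 0.0738.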
